A study of Rattus norvegicus with 19 samples.

Results

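The 12 malignant peripheral nerve sheath tumours (MPNST) of this series were divided into 2 sets chosen by their measured levels of Mx1 and Irf7: ordered by the mean of both genes' normalized log2 signals, the 5 highest are called interferon-high and the other 7 interferon-low. All were trigeminal nerve tumours of adult rats that had received ENU (N-ethyl-N-nitrosourea, which alkylates DNA) on postnatal day 1, at 80 µg for each g of body weight. Each array held RNA of 1 tumour. The interferon-high tumours were T1 (female, F1-hybrid of BDIV and BDIX), T3 (female, BDIX), T12 (male, BDIV), T11 (female, BDIV) and T5 (female, F1-hybrid). The interferon-low tumours were T8, T7, T10, T9 and T2 (all male, F1-hybrid), T4 (female, BDIX) and T6 (female, congenic BDIX.BDIV-Mss4a). The series of 19 arrays also holds 1 microtumour of a congenic BDIX.BDIV-Mss4a male given the same ENU dose, and 6 pools of untreated trigeminal nerve from rats 85 days old, 1 male and 1 female pool of each of the strains BDIX.BDIV-Mss4a, BDIX and BDIV. These 7 arrays give levels beside the tumours and enter no test, apart from 1 alternative fit over all 19 arrays.

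Type I and type II interferons act through JAK kinases at their receptors. Type I signalling brings a factor complex that holds Irf9 to a short DNA element, the interferon-stimulated response element, in front of antiviral genes. Irf7 is a transcription factor that amplifies type I interferon production, and Mx1 is an antiviral GTPase induced by type I interferon. Interferon also raises antigen presentation: class I molecules (RT1 genes and B2m in the rat), the Tap transporter that loads them and the immunoproteasome that cuts their peptides. In nerve sheath tumours the signal can come from tumour cells, macrophages, lymphocytes or remaining nerve, and total RNA of a tumour does not separate these sources. Fewer cells of a type and less RNA per cell cannot be told apart in these arrays either.

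The mean of Mx1 and Irf7 was 11.11 in T1, 10.67 in T3, 10.29 in T12, 9.91 in T11 and 9.14 in T5. It was 9.08 in T8, 8.48 in T7, 8.07 in T4, 7.49 in T6, 7.48 in T10, 7.48 in T9 and 7.44 in T2. The order is a slope with no clear step at the boundary, where T5 lay just inside and T8 just outside, and T8 had the higher Mx1 of the pair (9.29, against 8.93 in T5). The same 5 tumours led under median scaling and in the authors' deposited values. These levels chose the sets and are a description.

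The sets were also uneven in sex, strain and array background, though Fisher's test passed for none of these. Of the interferon-high tumours 4 were female and 1 was male, against 2 female and 5 male among the interferon-low (Fisher's exact test, two-sided p = 0.242). F1-hybrids made up 2 of 5 interferon-high and 5 of 7 interferon-low tumours (Fisher's exact test, two-sided p = 0.558), and both BDIV tumours were interferon-high. Among F1-hybrids the interferon-high tumours were all female and the interferon-low all male. Set and sex thus cannot be told apart in fits of F1-hybrid tumours alone. With T6 counted as BDIX, as in the fit with sex and strain as covariates, the sets meet within 1 sex and strain only in T3, T4 and T6. Arrays of the series fell into a higher and a lower range of raw background, with 3 interferon-high and 6 interferon-low tumours in the higher range (Fisher's exact test, two-sided p = 0.523). The tumours of the lower range were T11, T12 and T9, so fits on the higher range alone leave out both BDIV tumours. Between 44.7% and 51.3% of probes were detected on the interferon-high arrays, and between 44.1% and 50.05% on the interferon-low.

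The response element was looked for in the promoters of the measured genes, because its presence is the textbook link between these genes and the signal that named the sets. RefSeq promoters of the GRCr8 build run from 250 bases before to 50 bases after a gene's start. They were searched for the letters GAAANNGAAA on either strand, which read TTTCNNTTTC on the other. The promoters below belong to interferon or class I genes that hold a match and were chosen by their values. The first 4 lay higher in all 5 interferon-high than in all 7 interferon-low tumours, as did Ifi44l, which is not shown. Most interferon and class I genes with a match did not separate the sets, and Tap1 is shown as 1 of these. Their differences ran from −0.23 in RT1-N3 to 0.82 in Oasl2. Each is 1 run from 5′ to 3′ on the strand of the gene, and capitals mark the matches, which overlap in Oas1a.
RT1-S3, chr20:2675278-2675577, plus strand: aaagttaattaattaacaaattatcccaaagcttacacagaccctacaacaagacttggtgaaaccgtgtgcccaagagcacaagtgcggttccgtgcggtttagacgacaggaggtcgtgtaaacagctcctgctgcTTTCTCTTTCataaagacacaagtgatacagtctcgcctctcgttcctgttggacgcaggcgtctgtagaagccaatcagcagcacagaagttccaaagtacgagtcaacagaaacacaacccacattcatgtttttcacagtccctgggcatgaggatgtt
Ifi44, chr2:243303791-243304090, minus strand: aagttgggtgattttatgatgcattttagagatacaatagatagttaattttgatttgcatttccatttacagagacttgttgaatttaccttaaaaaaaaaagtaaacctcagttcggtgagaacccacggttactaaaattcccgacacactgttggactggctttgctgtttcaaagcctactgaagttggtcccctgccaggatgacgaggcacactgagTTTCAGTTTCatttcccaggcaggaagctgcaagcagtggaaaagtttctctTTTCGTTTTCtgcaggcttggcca
Oas1a, chr12:41330216-41330515, plus strand: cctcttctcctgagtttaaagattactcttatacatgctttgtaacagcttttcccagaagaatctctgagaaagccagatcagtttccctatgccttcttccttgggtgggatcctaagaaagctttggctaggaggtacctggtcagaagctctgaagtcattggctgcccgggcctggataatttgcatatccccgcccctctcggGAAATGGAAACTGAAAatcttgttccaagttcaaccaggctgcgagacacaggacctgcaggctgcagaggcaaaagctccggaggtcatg
Igtp, chr10:42874797-42875096, plus strand: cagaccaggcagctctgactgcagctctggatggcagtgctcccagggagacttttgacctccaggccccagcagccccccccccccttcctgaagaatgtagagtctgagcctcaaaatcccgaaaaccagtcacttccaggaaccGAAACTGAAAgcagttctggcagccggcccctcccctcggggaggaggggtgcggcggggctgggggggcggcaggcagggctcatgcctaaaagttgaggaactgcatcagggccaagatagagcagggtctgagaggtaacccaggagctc
Tap1, chr20:4668494-4668793, minus strand: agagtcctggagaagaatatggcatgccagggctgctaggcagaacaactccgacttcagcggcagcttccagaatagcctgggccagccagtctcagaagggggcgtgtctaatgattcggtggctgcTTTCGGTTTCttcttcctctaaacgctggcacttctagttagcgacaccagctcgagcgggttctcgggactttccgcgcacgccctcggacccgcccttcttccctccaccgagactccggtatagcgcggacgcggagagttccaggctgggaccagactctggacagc

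The letters were in 16 of the 28 antiviral interferon-stimulated genes that were measured and matched to a promoter (57.1%). They were in 6 of 20 class I and peptide loading genes (30%), in 3 of 5 immunoproteasome genes and in 1 of 33 genes of G2 and mitosis (3.03%). Among all measured genes matched to a promoter 195 of 6473 held them (3.01%), and 1312 of 33469 promoters in all (3.92%). Several of the genes with the largest differences, Mx2, Rtp4, Ifit1 and Ifi27l2b, were not matched to a promoter, so theirs were not searched. Genes were matched through their symbols, so a changed symbol can leave a gene unmatched. A match is a run of letters and is not evidence that a factor binds there.

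Across all features, no gene passed the test between the sets. Limma's moderated test over 10527 features (7771 with a gene symbol) called 0 at an adjusted p under 0.05, 0% of the features. At an unadjusted p under 0.05 there were 412 higher features (3.91%) and 572 lower features (5.43%) in interferon-high tumours. In 44 features (0.418%) all 5 interferon-high tumours lay above all 7 interferon-low, and in 31 (0.294%) all 5 lay below. The median difference over all features was −0.01 on the log2 scale. The smallest adjusted p was 0.0523, held by Rtp4, Ifit1 and Aox1 (aldehyde oxidase), and 6 features were under 0.1.

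The count of calls moved with single tumours and with the processing. Limma called 13 features without T5, 5 without T6, 2 without T3 and 1 without T8, and 0 without any one of the other tumours. It called 1 feature (Rtp4) under median scaling, 13 on the authors' deposited values, 15 when all 19 arrays shared the fit and 4 without T5 and T8. When the mean of Mx1 and Irf7 was used as a continuous measure, 5 genes were called, and all were antiviral (Ifit1, Mx2, Oas1i, Oasl and Rtp4). Antiviral genes share their regulation with that pair, so their calls in any of these fits are not an independent result. Because the count of calls moved, all counts of list members below are at an unadjusted p under 0.05. They are to be read against the shares of all features given above. No difference named below passed limma's test after adjustment over all 12 tumours.

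The antiviral genes were examined first, as a check that the sets hold what their name says. Mx2, the second Mx GTPase, was at 11.34, 10.12, 11.43, 10.42 and 10.10 in T1, T3, T12, T11 and T5. It was at 9.62, 8.94, 8.47, 7.31, 7.53, 7.65 and 7.47 in T8, T7, T4, T6, T10, T9 and T2. The sets did not overlap, and the interferon-low tumours themselves divided, with T8, T7 and T4 above the rest. The mean was 10.68 ± 0.66 (SD, n = 5) in interferon-high and 8.14 ± 0.88 (SD, n = 7) in interferon-low tumours, a difference of 2.54 on the log2 scale.

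Rtp4, an interferon-induced receptor transporter protein, was at 10.81, 10.64, 10.21, 11.26 and 9.99 in T1, T3, T12, T11 and T5. The interferon-low values were 9.18, 8.66, 8.78, 7.78, 7.89, 8.09 and 8.22 in T8, T7, T4, T6, T10, T9 and T2. T11 was highest, although it was only the fourth tumour by Mx1 and Irf7. Ifit1, which blocks translation of viral RNA, ran from 8.59 in T5 to 9.80 in T3 (median 9.46) in interferon-high and from 7.28 in T10 to 8.02 in T8 (median 7.43) in interferon-low tumours. Irf9, a DNA-binding factor of type I interferon signalling, averaged 8.99 ± 0.30 (SD, n = 5) in interferon-high and 8.24 ± 0.12 (SD, n = 7) in interferon-low tumours.

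Of 37 measured antiviral interferon-stimulated genes, 29 had a difference above 0, and their median difference was 0.25 against −0.01 over all features. In 9 of the 37 the sets did not overlap: Mx2, Ifi27l2b, Rtp4, Ifit1, Ifi44, Ube2l6, Ifi44l, Oas1a and Oasl. Their differences ran from 0.39 in Oasl to 2.54 in Mx2. Others stood at the same level in both sets: Bst2, which tethers viruses to the cell surface, differed by −0.01, and Trim25, which activates the RNA sensor RIG-I, by 0.01. These genes share their regulation with the pair that chose the sets, so their differences describe the sets and are not an independent result. Isg15 and Usp18 had probes that were not detected on enough arrays, and Rsad2 had no probe under this symbol.

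Among 10 sensors of foreign nucleic acid and their adaptors the median difference was 0.04. Zbp1, a sensor of Z-form nucleic acid, differed by 0.93 and Dhx58, a helicase of the RIG-I family, by 0.61, whereas Mavs, the mitochondrial adaptor, differed by −0.22. Among 8 genes of interferon signalling the median was 0.01. Irf9 was the exception there, and Irf1, a factor induced mostly by interferon-gamma, differed by −0.12. The kinases Jak1 and Jak2 differed by −0.07 and 0.04. Of the interferon-induced GTPases, Igtp differed by 0.30 with no overlap of the sets, Gbp2 by 0.55 and Ifi47 by 0.06. The difference of Ifi47 was −0.79 on the authors' values and 0.54 with sex and strain in the model. The signs for Mavs, Irf1, Jak1 and Jak2 also turned under some alternatives.

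**Figure D1:**
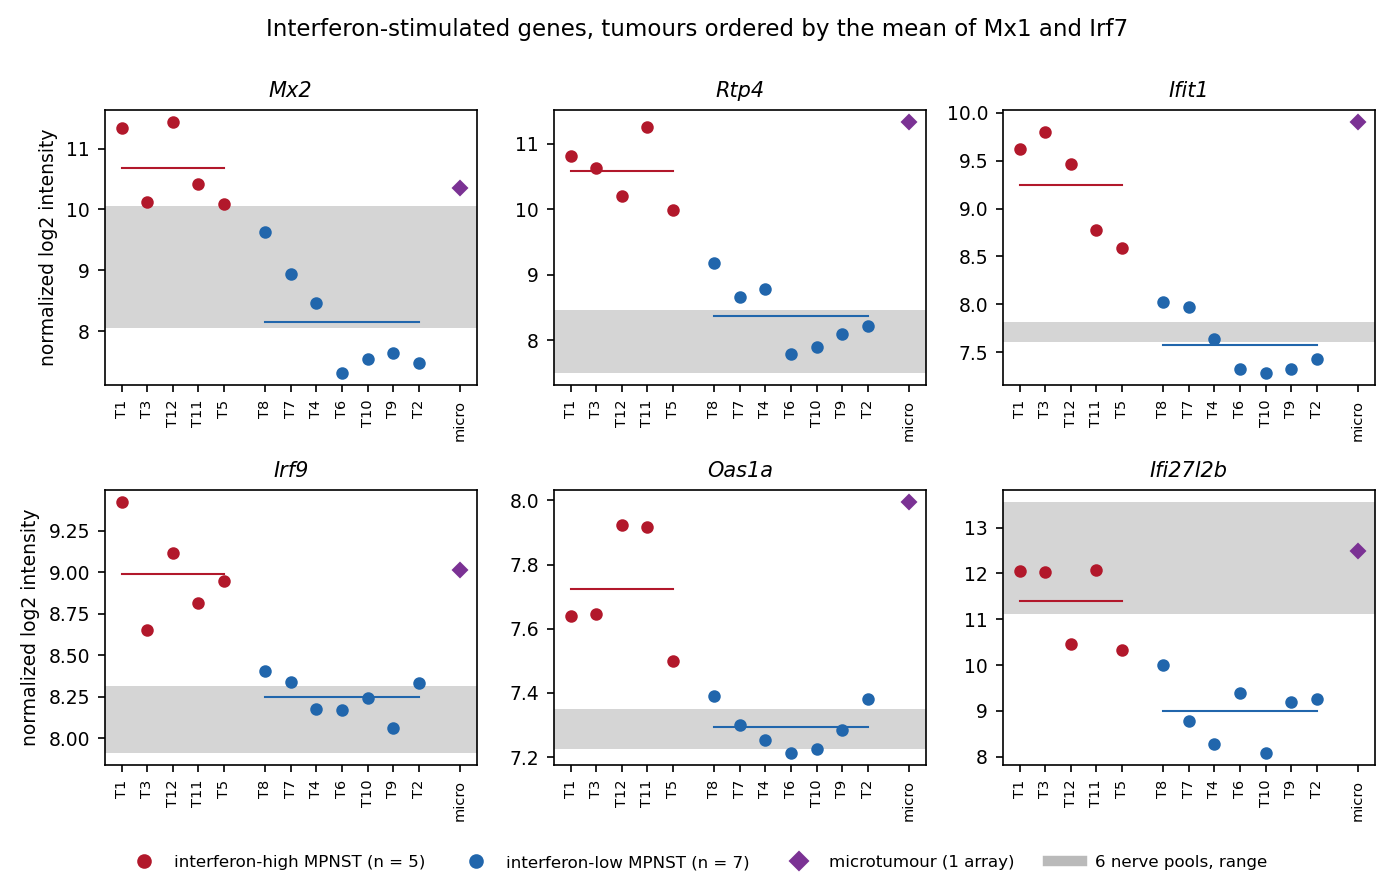
Normalized log2 intensity (vertical axes) of 6 interferon-stimulated genes in each MPNST, ordered by the mean of Mx1 and Irf7, with interferon-high tumours (red) left of interferon-low (blue), set means as lines, the microtumour as a diamond and the range of the nerve pools as a grey band. In all 6 genes the 5 interferon-high tumours lie above the 7 interferon-low, and Mx2 is 10.68 on average in interferon-high against 8.14 in interferon-low tumours.

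Class I genes of the RT1 complex were higher on average in interferon-high tumours, but the Tap transporter that loads them was not. RT1-S3, a class I gene, was at 9.75, 9.78, 8.85, 10.91 and 9.28 in T1, T3, T12, T11 and T5. It was at 8.50, 8.16, 7.88, 7.38, 7.77, 7.54 and 8.38 in T8, T7, T4, T6, T10, T9 and T2. The sets did not overlap; T11 was the highest and T6 the lowest tumour. The difference was 1.77 ± 0.32 (SE), 3.41-fold, with a limma adjusted p of 0.117.

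RT1-A3 was at 9.78, 8.95, 10.31, 11.88 and 9.94 in T1, T3, T12, T11 and T5, and between 7.62 (T6) and 9.34 (T9, median 9.12) in the interferon-low tumours. Here T3 lay within the interferon-low range and T11 far above all other tumours. RT1-A2 averaged 10.13 ± 0.29 (SD, n = 5) in interferon-high and 9.25 ± 0.64 (SD, n = 7) in interferon-low tumours, and RT1-A1 averaged 11.83 ± 0.41 (SD, n = 5) and 11.01 ± 0.68 (SD, n = 7). In both genes T2, the tumour with the lowest Mx1 and Irf7, broke the pattern, with RT1-A2 at 10.48 and RT1-A1 at 12.29. B2m, the invariant light chain of class I, was close to the top of the scale in both sets and averaged 14.43 ± 0.13 (SD, n = 5) and 14.23 ± 0.10 (SD, n = 7).

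Of 24 measured genes of class I and peptide loading, 7 were higher at an unadjusted p under 0.05, which is 29.2% against 3.91% of all features, and none was lower. The 7 were RT1-S3, RT1-A3, RT1-A2, RT1-A1, RT1-T24-4, RT1-CE7 and B2m; RT1 probes of near-identical genes can cross-hybridize, so these are not 7 separate measurements. Tumours of BDIV, BDIX and their hybrid can also carry different RT1 alleles, whose part in the result was not tested. The list median was 0.17 over the 12 tumours, 0.035 among F1-hybrid tumours alone and 0.024 among tumours of the higher background range alone. Of the 24 differences 7 were below 0, among them that of RT1-N3 (−0.23). The number higher was 3 among F1-hybrid tumours, 4 in the higher background range and 0 with sex and strain in the model. The transporter subunits Tap1 (−0.04) and Tap2 (0.05) and the chaperone calreticulin, Calr (0.04), differed by far less than the RT1 genes.

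The immunoproteasome followed T2 and T11 and not the sets. Psmb8, one of its catalytic subunits, was at 9.85, 8.96, 8.58, 10.21 and 8.66 in T1, T3, T12, T11 and T5. It was at 8.85, 8.30, 8.54, 8.20, 8.54, 8.52 and 11.30 in T8, T7, T4, T6, T10, T9 and T2. The highest value of all 12 tumours was thus in T2, the tumour with the lowest Mx1 and Irf7. The list score, which is the mean over members of a gene's log2 level minus its mean over the 12 MPNST, was 0.76 in T2 and 0.71 in T11. In the other tumours it lay between −0.39 (T5) and 0.24 (T1). The 5 members had a median difference of 0.25, and 0 of 5 were higher or lower at an unadjusted p under 0.05. That median was −0.15 with sex and strain as covariates and −0.077 among F1-hybrid tumours.

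T2 shared this profile across genes that work together in class I loading. Tap2 was at 9.28 in T2 and at most 8.80 in any other MPNST, and Tap1 was at 8.96 in T2 and at most 8.59 elsewhere. The class I list score was 0.35 in T2, against −0.41 to −0.15 in the other 6 interferon-low tumours and 0.06 to 0.48 in the interferon-high. Mx2 (7.47), Ifit1 (7.43) and Rtp4 (8.22) in T2 were below every interferon-high tumour. Other antiviral genes were not: Slfn4 (9.24) and Oasl2 (8.51) in T2 lay above T5 (8.80 and 8.44). The antiviral score of T2 was −0.10, in the upper part of the interferon-low range (−0.37 to −0.02) and below the interferon-high tumours (0.12 to 0.47). Irf1 was at 11.26 in T2 and 11.30 in T11, and between 10.01 and 10.91 in the other 10 tumours. These genes of T2 were picked after their values had been seen and carry no test. T2 also had the highest skeletal muscle score of the 12 tumours (2.11), whose part in this profile was not tested.

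**Figure D2:**
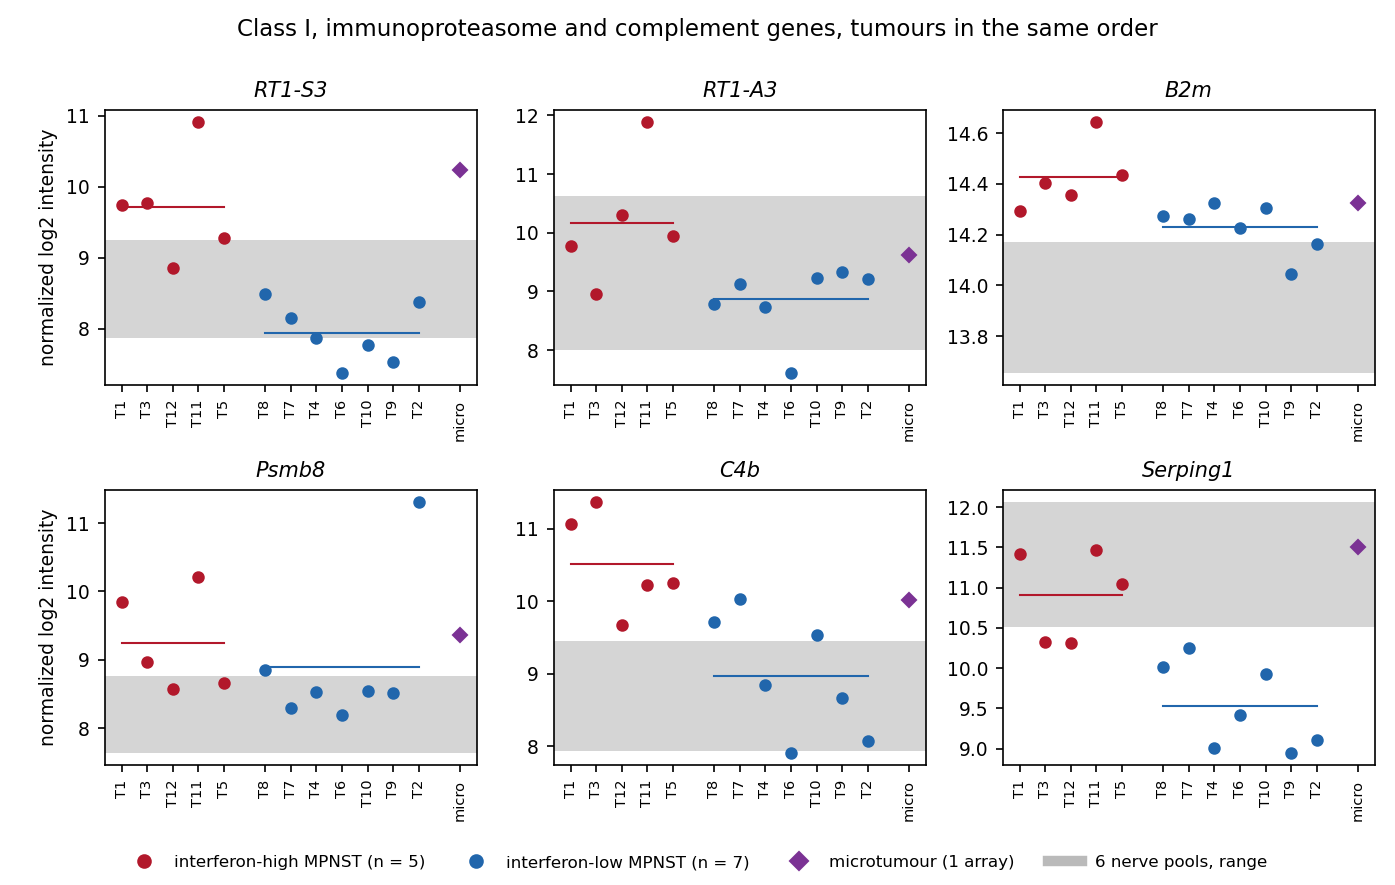
Normalized log2 intensity (vertical axes) of 3 class I genes, an immunoproteasome gene and 2 complement genes in each MPNST, with interferon-high tumours (red) left of interferon-low (blue), set means as lines, the microtumour as a diamond and the nerve range as a grey band. RT1-S3 and Serping1 show no overlap of the sets, whereas Psmb8 is highest in T2 (11.30), the last tumour of the interferon-low set.

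Of 9 class II presentation genes, 2 were higher at an unadjusted p under 0.05, the lysosomal proteases Ctss (0.63) and Lgmn (0.62), and the list median was 0.25. It was 0.42 among F1-hybrid tumours alone and 0.41 among tumours of the higher background range alone, with 1 gene higher in each. The class II chain RT1-Da averaged 12.49 ± 0.42 (SD, n = 5) in interferon-high and 12.13 ± 0.43 (SD, n = 7) in interferon-low tumours. Cd74, the invariant chain, averaged 9.16 ± 0.34 (SD, n = 5) and 8.91 ± 0.55 (SD, n = 7). Both genes overlapped across the sets.

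Of 24 macrophage genes 22 had a difference above 0, with a median of 0.11, but 1 was higher at an unadjusted p under 0.05 (4.17%, against 3.91% of all features). This count depended on the fit: it was 10 among tumours of the higher background range alone, where all 24 differences were above 0 (median 0.20), 7 among F1-hybrid tumours alone (median 0.25), 7 on the authors' values, 6 under median scaling and 0 with sex and strain in the model. In the fit over the 12 tumours the gene was C1qa, a chain of complement C1q, at 11.54, 10.67, 10.11, 11.37 and 10.54 in T1, T3, T12, T11 and T5. In the interferon-low tumours it was between 9.45 (T6) and 10.59 (T9), with a median of 10.04. T12 and T5 thus lay inside the interferon-low range. The macrophage score was highest in T1 (0.57) and lowest in T12 (−0.39), which were both interferon-high. Fcgr3a, an Fc receptor, ran from 8.32 to 11.40 in interferon-high and from 8.07 to 9.81 in interferon-low tumours. The scavenger receptor Cd163 was near the detection limit, at 7.40 on average in both sets, and Itgam differed by 0.04.

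T and NK cell genes were at the detection limit in both sets. Of 32 genes of this list with a probe 9 passed the filter on detection, and none was higher or lower at an unadjusted p under 0.05 (median −0.0043). Cd3e, a chain of the T cell receptor complex, lay between 7.23 and 7.32 in interferon-high and between 7.26 and 7.30 in interferon-low tumours and was detected in 3 of 5 and 3 of 7. Cd8a, the marker of cytotoxic T cells, averaged 7.41 ± 0.15 (SD, n = 5) and 7.32 ± 0.08 (SD, n = 7), and Prf1, perforin, averaged 7.30 ± 0.04 (SD, n = 5) and 7.31 ± 0.04 (SD, n = 7). Gzmb and Cd274 had probes that were not detected on enough arrays. Of the mast cell list 0 genes were measured, of the neutrophil list 1 and of the B and plasma cell list 2. Ptprc, the pan-leukocyte antigen CD45, was dim, at 7.33 to 7.38 in interferon-high and 7.26 to 7.30 in interferon-low tumours; the sets did not overlap but differed by 0.07.

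Complement genes stood higher in 4 of the 5 interferon-high tumours. Serping1, the C1 inhibitor, was at 11.42, 10.32, 10.31, 11.47 and 11.04 in T1, T3, T12, T11 and T5. It was at 10.01, 10.26, 9.01, 9.41, 9.93, 8.95 and 9.10 in T8, T7, T4, T6, T10, T9 and T2. The sets did not overlap, although T3 and T12 lay just above T7, and the difference was 1.39 ± 0.30 (SE), with a limma adjusted p of 0.243. C4b, the complement component 4 chain, averaged 10.51 ± 0.69 (SD, n = 5) in interferon-high and 8.97 ± 0.82 (SD, n = 7) in interferon-low tumours. The nerve pools held Serping1 at 10.51 to 12.06, a range that covers 3 of the 5 interferon-high tumours. Of 8 complement genes 4 were higher at an unadjusted p under 0.05 (50%, against 3.91%): C4b, Serping1, C1s and Cfb. The list median was 0.46, and the score was −0.44 in T12, against 0.43 to 0.81 in the other interferon-high tumours. Without T12 the median was 0.89.

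Of 13 chemokines 11 had a difference above 0, with a median of 0.32, and 2 were higher at an unadjusted p under 0.05, Cxcl12 (0.57) and Ccl7 (0.43). With sex and strain as covariates this median was 0.05. Cxcl9 and Cxcl10, which attract T cells and are induced by interferon-gamma, differed by 0.54 and 0.35. Cxcl10 was highest in T12 (8.51) and at 7.52 to 7.77 in the other interferon-high tumours, against 7.30 to 7.88 in the interferon-low. Casp1, the inflammasome protease, was at 10.07 in T11 and at most 8.38 in any other MPNST. Its averages of 8.26 ± 1.03 (SD, n = 5) and 7.91 ± 0.28 (SD, n = 7) rest on that tumour.

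Stromal genes differed in both directions. Of 25 collagen and matrix genes 21 had a difference below 0, and 5 were lower at an unadjusted p under 0.05 (20%, against 5.43% of all features), with a list median of −0.30. This count depended on the fit. It was 1 in the higher background range, 1 under median scaling and 0 with sex and strain in the model. It was 3 among F1-hybrid tumours, 5 on the authors' values and 6 with the continuous mean of Mx1 and Irf7. Col5a1, a fibrillar collagen, was at 11.52, 12.95, 13.49, 12.41 and 13.53 in T1, T3, T12, T11 and T5, and between 13.29 and 13.94 (median 13.78) in the interferon-low tumours. T12 and T5 lay within the interferon-low range, and T1 was far below it. Spp1, osteopontin, went the other way, at 11.36 ± 0.69 (SD, n = 5) in interferon-high and 10.37 ± 0.53 (SD, n = 7) in interferon-low tumours. Col1a1 averaged 8.28 ± 0.48 (SD, n = 5) and 8.73 ± 0.93 (SD, n = 7), and Postn, periostin, 12.40 ± 1.11 (SD, n = 5) and 12.32 ± 1.01 (SD, n = 7).

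Of 13 fibroblast genes 2 were higher and 1 was lower at an unadjusted p under 0.05, with a median of 0.03. Dcn, decorin, averaged 13.55 ± 0.84 (SD, n = 5) in interferon-high and 12.68 ± 0.19 (SD, n = 7) in interferon-low tumours, and T11 (14.80) reached the nerve range of 14.17 to 14.88. Fbln1, fibulin 1, averaged 11.83 ± 1.26 (SD, n = 5) and 12.96 ± 0.40 (SD, n = 7). Pdgfra differed by 0.51. Of 11 endothelial genes 1 was higher at an unadjusted p under 0.05, the tight junction gene Cldn5 (1.10), and the median was 0.0043. Cldn5 was also high in nerve, at 11.60 to 12.25.

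Genes of cell division were lower on average in interferon-high tumours. All 39 measured genes of G2 and mitosis had a difference below 0, with a median of −0.61, and 27 were lower at an unadjusted p under 0.05 (69.2%, against 5.43% of all features). Ccnb2, a B-type cyclin, was at 11.54, 11.77, 10.02, 10.20 and 11.43 in T1, T3, T12, T11 and T5. In the interferon-low tumours it lay between 11.73 (T10) and 12.53 (T2), with a median of 12.24. T3 overlapped with T10, and T12 and T11 were lowest. The difference was −1.16 ± 0.31 (SE), 2.23-fold, with a limma adjusted p of 0.312.

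Bub1, a kinase of the spindle checkpoint, was at 8.13, 8.84, 8.22, 7.65 and 8.88 in T1, T3, T12, T11 and T5. It was at 9.54, 9.25, 9.22, 9.75, 9.07, 8.91 and 9.12 in T8, T7, T4, T6, T10, T9 and T2. The sets did not overlap, but T5 and T9 were close. The same held for Kif23, a kinesin of cytokinesis, with a difference of −0.90. Cdk1, the kinase that drives entry into mitosis, averaged 10.94 ± 0.61 (SD, n = 5) in interferon-high and 11.75 ± 0.40 (SD, n = 7) in interferon-low tumours, and Ttk, another checkpoint kinase, 8.54 ± 0.78 (SD, n = 5) and 9.75 ± 0.34 (SD, n = 7). The mitotic score was −0.35, 0.13, −0.30, −0.85 and −0.30 in T1, T3, T12, T11 and T5, and −0.12 (T10) to 0.55 (T2) in the interferon-low tumours. It was −1.50 to −1.36 in the nerve pools.

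S phase genes had smaller differences in the same direction. Of 32 genes 31 had a difference below 0, with a median of −0.38, and 20 were lower at an unadjusted p under 0.05 (62.5%, against 5.43%). Mcm6, a subunit of the replicative helicase, averaged 10.66 ± 0.78 (SD, n = 5) in interferon-high and 11.55 ± 0.37 (SD, n = 7) in interferon-low tumours. Ccna2, the cyclin of S and G2, averaged 8.44 ± 0.62 (SD, n = 5) and 9.36 ± 0.27 (SD, n = 7). The 9 regulators of G1 had a median difference of 0.01. Ccnd1, cyclin D1, averaged 13.54 ± 0.62 (SD, n = 5) and 13.97 ± 0.41 (SD, n = 7).

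The difference in cell division genes depended on which tumours were set against each other. With sex and strain as covariates the median of the mitotic genes was −0.03 and that of the S phase genes 0.01, and 0 genes of either list were lower at an unadjusted p under 0.05. Few tumours inform that fit, because the sets meet within the same sex and strain only in T3, T4 and T6. The number of the 39 mitotic genes that were lower was also below 27 in other fits, at 7 in the higher background range and 15 under median scaling. For the 32 S phase genes it was 6 in each of these fits (medians −0.22 and −0.20) and 8 with sex alone as a covariate. Among F1-hybrid tumours alone (T1 and T5, both female, against 5 males) the mitotic median was −0.61, and set and sex cannot be told apart there. Among tumours of the higher background range alone the mitotic median was −0.41. Leaving out each tumour in turn gave mitotic medians of −0.72 to −0.45. The 2 BDIV tumours, T11 and T12, are both interferon-high and both in the lower background range. Strain BDIV, background range and the set thus cannot be told apart in them. The fit on the higher background range leaves out these tumours and T9.

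Neuronal genes ran opposite to the division genes. Of 19 sensory neuron genes 12 were higher at an unadjusted p under 0.05 (63.2%, against 3.91%), with a median of 0.76. Prph, peripherin, an intermediate filament of peripheral neurons, was at 11.33, 11.72, 11.15, 10.33 and 10.69 in T1, T3, T12, T11 and T5. It was at 7.44, 8.32, 9.40, 10.81, 7.29, 7.31 and 7.47 in T8, T7, T4, T6, T10, T9 and T2. Every interferon-high tumour and, of the interferon-low, T6 lay above 10, and T8, T10, T9 and T2 lay near the floor of the scale. The nerve pools held it at 13.57 to 14.82.

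Sncg, gamma-synuclein, found in peripheral neurons, was at 9.32, 9.80, 10.58, 10.34 and 9.53 in T1, T3, T12, T11 and T5. It was at 9.30 in T6 and at 7.37 to 8.07 in the other interferon-low tumours. T6 lay just below the lowest interferon-high tumour. The difference was 2.0 ± 0.34 (SE), 4.0-fold, with a limma adjusted p of 0.115, which was 0.0201 without T6. Nefl, the light neurofilament chain, ran from 9.78 to 12.84 (median 11.61) in interferon-high and from 7.22 to 12.31 (median 7.45) in interferon-low tumours, where it was detected in 5 of 7.

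The sensory neuron score was 0.45, 0.76, 0.69, 0.43 and 0.42 in T1, T3, T12, T11 and T5. It was 0.45 in T6, −0.08 in T4, −0.32 in T7 and −0.82 to −0.61 in T8, T10, T9 and T2. T6 thus combined a neuronal score like that of the interferon-high tumours with Mx1 and Irf7 near the bottom of the order and the lowest antiviral score (−0.37). In the nerve pools the neuronal score was 2.92 to 4.03 and the antiviral score −0.56 to −0.19, below every interferon-high tumour (0.12 to 0.47). Single genes differed from that score. Ifi27l2b was at 11.13 to 13.56 in nerve, against 10.34 to 12.08 in interferon-high tumours, whereas Rtp4 was at 7.50 to 8.47 in nerve. The mean of Mx1 and Irf7 was 7.91 to 8.69 in nerve, above T6, T10, T9 and T2 (7.44 to 7.49). Among the alternatives with covariates, F1-hybrid tumours alone or 1 background range alone, the neuronal median lay between 0.52 and 0.82. The lowest median was that with sex alone as a covariate, where 9 of 19 genes were higher at an unadjusted p under 0.05. In the higher background range alone 7 of 19 were higher (median 0.63). The part of remaining nerve in the differences of the antiviral, complement, stromal and cell division genes was not tested.

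Myelin genes had smaller differences in the same direction: all 9 had a difference above 0 (median 0.34), and 4 were higher at an unadjusted p under 0.05, led by Mal (1.12) and Ugt8 (0.74), both of myelin membrane. The myelin score was 0.04 to 0.46 in interferon-high and −0.46 to 0.23 in interferon-low tumours, against 2.29 to 4.05 in nerve. Of 21 Schwann lineage genes 2 were higher and 2 were lower, and the median was −0.04. Sox10, the factor that defines the lineage, averaged 12.51 ± 0.38 (SD, n = 5) in interferon-high and 12.60 ± 0.31 (SD, n = 7) in interferon-low tumours.

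**Figure D3:**
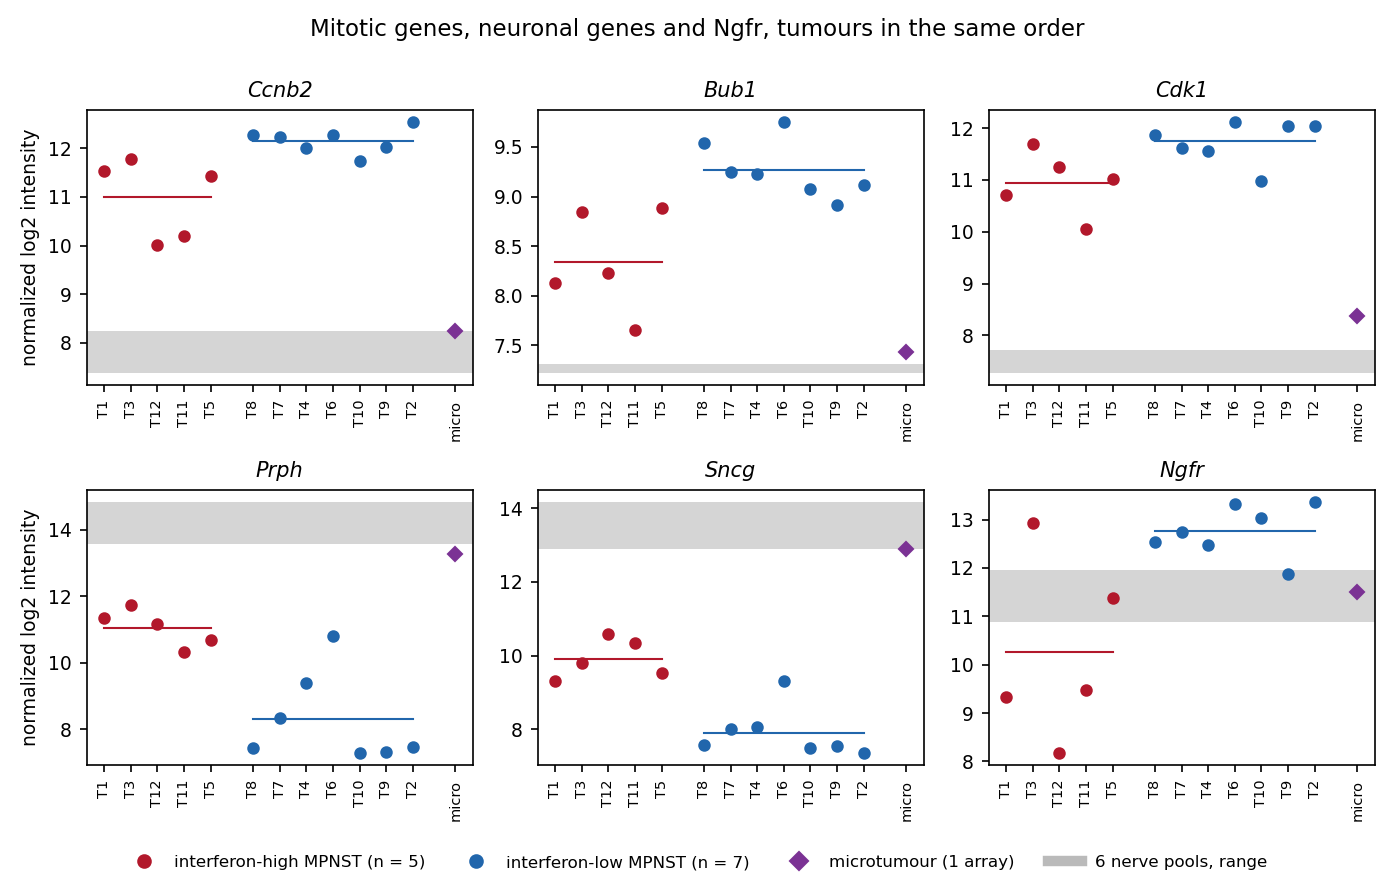
Normalized log2 intensity (vertical axes) of 3 mitotic genes, 2 neuronal genes and Ngfr in each MPNST, with interferon-high tumours (red) left of interferon-low (blue), set means as lines, the microtumour as a diamond and the nerve range as a grey band. The mitotic genes lie lower and the neuronal genes higher in the interferon-high set, and T6 (Prph 10.81) is the interferon-low tumour that shares the neuronal level.

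Within the Schwann lineage, single genes differed by large amounts in opposite directions. Ngfr, the low-affinity neurotrophin receptor of immature and repair Schwann cells, was at 9.33, 12.93, 8.18, 9.48 and 11.37 in T1, T3, T12, T11 and T5, and between 11.88 and 13.36 (median 12.74) in the interferon-low tumours. T3 lay within the interferon-low range, and T12, T1 and T11 were far below it. The difference of −2.50 ± 0.70 (SE) was the lowest outside the interferon lists, among features with a symbol that is not provisional. Gfap, a filament of non-myelinating Schwann cells, was at 13.17, 12.94, 10.83, 11.26 and 12.06 in T1, T3, T12, T11 and T5. It was at 12.36 in T4 and at 8.21 to 9.74 in the other interferon-low tumours. Mycn, a proto-oncogene of the Myc family, averaged 8.98 ± 1.25 (SD, n = 5) and 10.85 ± 0.50 (SD, n = 7), with T5 (10.62) among the interferon-low values and T3 (9.96) level with T2, the lowest of them.

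The other genes with the largest differences followed the same lines or 1 or 2 tumours. Among the 10 highest outside the interferon lists were Ptgds (2.40), a prostaglandin synthase abundant in nerve, and Fabp7 (2.09), a fatty acid carrier of glia. Pcp4 (2.0), A2m (1.95), a protease inhibitor, and Omg (1.88), a myelin glycoprotein, were also among them. Among the 10 lowest, Acta1 (−1.41) and Tnnc2 (−1.19), genes of the sarcomere, were high in T10 (12.18 and 11.74) and T2 (13.27 and 11.97) and near the floor in the other tumours. The skeletal muscle score was 1.37 in T10 and 2.11 in T2, against −0.50 to −0.03 in all other MPNST. Mmp11, a matrix protease, differed by −1.39, P3h2, a collagen hydroxylase, by −1.27 and Actg2, an enteric smooth muscle actin, by −1.23. The limma adjusted p of these 10 genes ran from 0.269 (A2m) to 0.721 (Acta1).

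Aox1, Spock2 and Ucp2, which no list holds, were among the 20 features with the lowest p. Mix23 and Mrps27, also among them and picked after their values had been seen, were lower in all 5 interferon-high than in all 7 interferon-low tumours, with differences of −0.54 and −0.39. Aox1 was at 7.88, 7.58, 7.76, 7.93 and 7.80 in T1, T3, T12, T11 and T5, and between 7.28 and 7.45 (median 7.38) in the interferon-low tumours. The sets did not overlap, and the difference was 0.41 (1.80 on the authors' values). The nerve pools were far higher, at 9.83 to 11.71. Spock2, a proteoglycan also high in nerve (11.29 to 13.60), averaged 8.52 ± 0.23 (SD, n = 5) in interferon-high and 7.62 ± 0.27 (SD, n = 7) in interferon-low tumours. Ucp2, a carrier of the inner mitochondrial membrane, was at 11.15, 11.32, 11.30, 10.82 and 10.22 in T1, T3, T12, T11 and T5, and between 9.77 and 10.28 in the interferon-low tumours. T5 lay inside the interferon-low range, and the nerve pools were at 9.93 to 10.91.

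**Figure D4:**
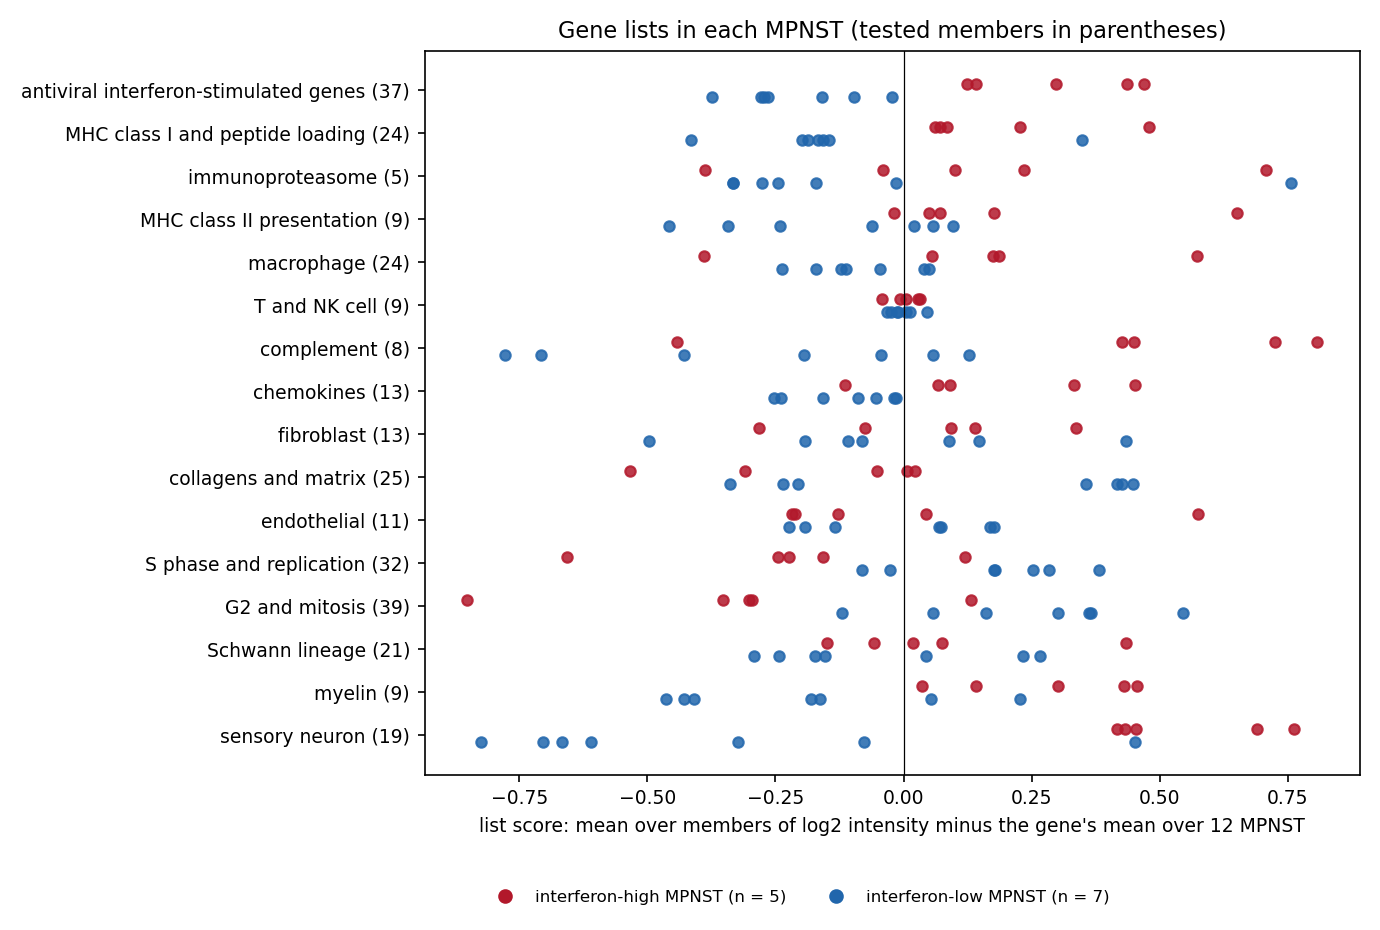
List scores (horizontal axis, log2 units relative to the mean of the 12 MPNST) of 16 gene lists, 1 point a tumour, interferon-high (red) above interferon-low (blue) in each row. The sets do not overlap in the antiviral genes, which describe how the sets were chosen, while the mitotic score is lower and the neuronal score higher in most interferon-high tumours and the T and NK cell score is near 0 throughout.

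The remaining lists gave medians from −0.35 (skeletal muscle) and −0.25 (cholesterol synthesis) to 0.27 (perineurial) and 0.59 (red blood cell). The red blood cell median, over 5 genes, was 0.06 with sex as a covariate, 0.28 without T2 and 0.31 without T3. Cell death and inflammasome genes had a median of 0.01, matrix proteases and their inhibitors 0.0005, respiratory chain genes 0.02, glycolysis and hypoxia genes 0.12, genes of MAPK output −0.05 and the constitutive proteasome core −0.02. The immediate early genes, which respond to handling of tissue, had a median of 0.12. The adipocyte, dendritic cell and pan-leukocyte lists had medians of 0.06, 0.05 and 0.08, the interferons and their receptors −0.02 and the pericyte and smooth muscle genes −0.10.

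**Figure D5:**
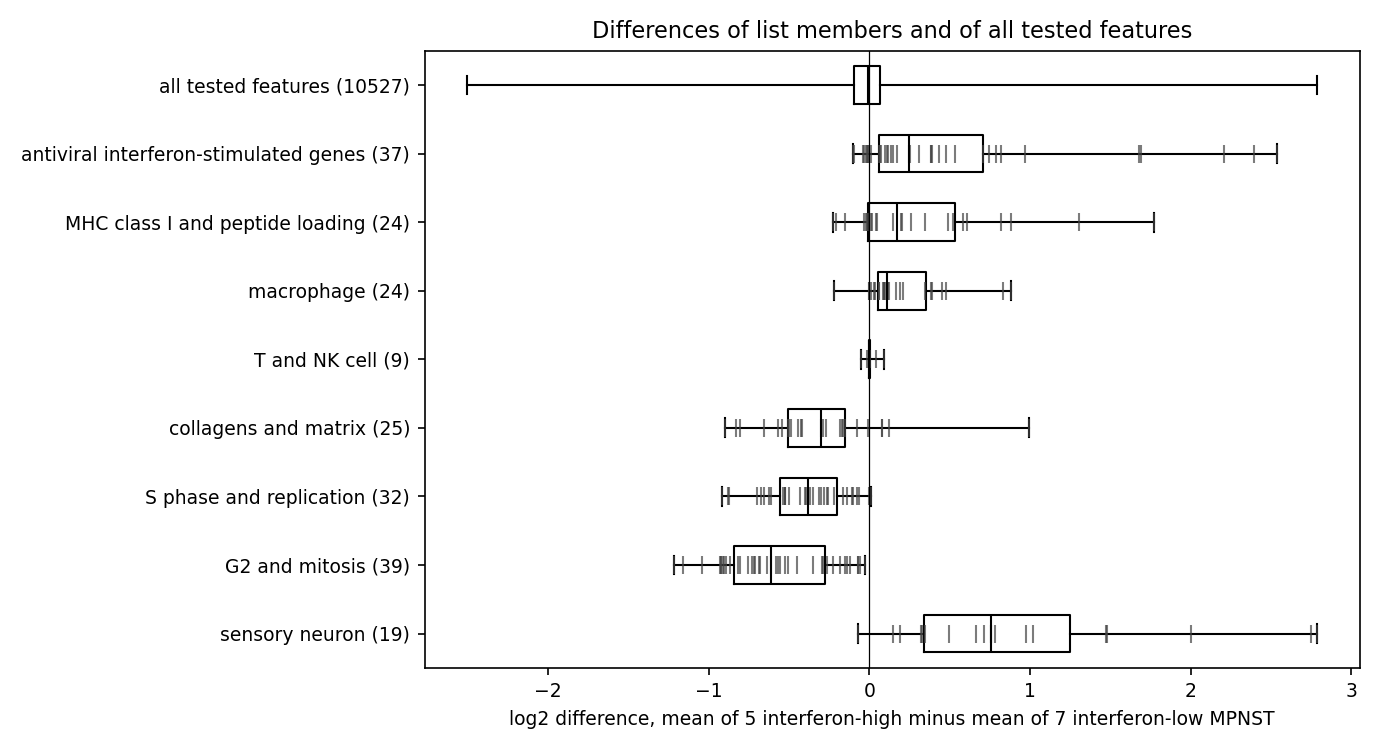
Differences on the log2 scale (horizontal axis, mean of 5 interferon-high minus mean of 7 interferon-low tumours) of all tested features and of 8 lists; boxes span the quartiles with the median as a line, whiskers reach the extremes and ticks are single genes. The median is −0.61 for G2 and mitosis and 0.76 for the sensory neuron list, against −0.01 for all features.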

How the data were processed

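RNA of 19 rat trigeminal nerve samples was measured on Illumina arrays. The authors read them with BeadStudio 3.0, per the submitters' processing notes. Per the file headers, the deposited table gives a raw intensity and a detection p-value for each of 21791 probes. The authors' own processed intensity values were used as an alternative; values below 0 were set to 0 and 16 was added before taking logs.

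The function neqc of limma 3.58.1 (R 4.3.3, offset 16) turned the raw intensities of all 19 arrays into quantile-normalized log2 values; its offset draws dim values together. A probe was kept where at least 5 of the 12 MPNST had a detection p-value under 0.05, with the highest-mean probe for each symbol. Mx1 and Irf7 were left out, leaving 10527 features. Array annotation named 13387 probes, and 13349 gene IDs were found in the RefSeq table.

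The test between sets was limma's moderated one (two-sided, 10 residual degrees of freedom, Benjamini-Hochberg adjustment over all features, threshold 0.05), which was tested on simulated data. For arrays, their number limits the precision. Nothing in the labels says whether tumours came from separate animals, so p-values measure the spread between these samples.

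The tumours, 39 gene lists and tests were chosen with earlier results of these data known. Genes were named by rule: the 10 highest and 10 lowest differences, a fixed set, and the 6 largest differences in each interferon list. The 10 highest and 10 lowest were taken outside the interferon lists, among features with a symbol that is not provisional (such as LOC or RGD). Other list members, Aox1, Spock2 and Ucp2 were picked after their values were seen. Alternatives covered scaling, the filter, background range, sex, strain, array weights, a continuous measure, all arrays and each tumour left out.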

Additional observations from a re-analysis of the deposited data

Results flagged for a closer look

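Of 260 sets of values examined, 20 held 1 tumour that stood apart from the rest of its set by Dixon's criterion, which chance alone meets in about 1 of 20 sets. Among the interferon-low tumours, T2 stood apart in Psmb8 (11.30), Psmb9 (7.69), Tap2 (9.28), Psme1 (12.84), RT1-T24-4 (8.82) and Mmp11 (11.70), and in the scores of the class I list (0.35) and the immunoproteasome (0.76). T6 stood apart in Sncg (9.30), Stmn2 (8.97), a neuronal stathmin, and RT1-A3 (7.62), where it was lowest. T4 stood apart in Gfap (12.36) and Jak1 (11.21), and T10 in Cd3e (7.26), which is at the detection limit. Among the interferon-high tumours, T11 stood apart in Casp1 (10.07), Actg2 (12.27), Acta1 (8.07) and Tnnc2 (7.70), T12 in Cxcl10 (8.51) and T5 in Lgmn (8.89), where it was lowest.

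The microtumour, which entered no comparison, had a mean of Mx1 and Irf7 of 10.61, above all 6 nerve pools (7.91 to 8.69) and within the range of the interferon-high tumours. Its antiviral score of 0.35 was also within their range, whereas its mitotic score of −1.21 was below that of every MPNST and its neuronal score of 2.54 above that of every MPNST.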

How the results depend on the processing

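Arrays give no depth, and for 12 tumours in 2 uneven sets their number limits the precision. Low-background tumours alone could not be compared, because 1 of them was interferon-low, and no interaction of the set with sex was tested, because 1 interferon-high tumour was male. No paired analysis was possible because each tumour has its own number and both sets come from 1 group. Removing T5 and T8 together was added after seeing the data.

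The number of called features was 0, and it was 1 under median scaling, 13 on the authors' values, 5 with the continuous mean of Mx1 and Irf7, 15 with all 19 arrays, 4 without T5 and T8, and 0 to 13 when each tumour was left out. At an unadjusted p under 0.05, the 412 higher features became 717 on the authors' values, 651 with no detection filter and 224 with sex and strain as covariates. The 572 lower features became 142 under median scaling, 275 on the authors' values, 154 with sex and strain, 245 in high-background tumours, 277 in F1-hybrid tumours and 341 to 786 with each tumour left out. The smallest adjusted p over these fits ran from 5.0e-05 to 0.389.

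On the authors' values, medians were 0.81 for antiviral genes, 0.24 for sensors, 0.13 for interferon signalling, 0.71 for chemokines, 0.49 for macrophage, 0.14 for T and NK cell, 1.19 for myelin and 1.47 for sensory neuron genes. These medians were larger than those of the main fit. The same offset was added before logs in both, but this does not make the scales alike for dim genes. In the main values a gene at the detection limit, Cd3e, lay between 7.23 and 7.32 in interferon-high tumours. The authors' values below 0 were set to 0 before 16 was added. The part of this in the larger medians was not tested. Under sex and strain covariates, medians were 0.045 for chemokines, −0.15 for the immunoproteasome, 0.014 for S phase and −0.028 for mitosis. The signalling median was 0.15 under median scaling, −0.090 under a sex covariate and 0.11 in F1-hybrid tumours, where the sensor median was 0.16 and the myelin median 0.64. The chemokine median was 0.071 with no detection filter and 0.14 in high-background tumours. The complement median was 0.30 to 0.89 with each tumour left out. The medians of the antiviral, sensor, chemokine, class I, class II, macrophage, complement, collagen, mitotic, myelin and sensory neuron lists kept their sign under the alternatives run. Those of the Schwann lineage, T and NK cell, endothelial, fibroblast and signalling lists, all near 0, changed sign under some, as did those of the S phase list (above) and the immunoproteasome (also −0.077 in F1-hybrid tumours). The causes were not tested.

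In these single genes, no adjusted p of which had passed, the sign of the difference turned. Under median scaling the differences were 0.11 for Tap1, 0.0029 for Cd3e and 0.011 for Prf1. On the authors' values the differences were 0.11 for Tap1, 0.084 for Cd163 and 0.082 for Prf1. Under a block for background range the differences were 0.11 for Tap1, 0.0299 for Cd163, −0.38 for Postn, 0.022 for Sox10 and −0.010 for Tap2. In high-background tumours the differences were 0.034 for Tap1, −0.041 for Psmb9, 0.077 for Cd163, −0.068 for Casp1, −0.46 for Postn, 0.016 for Sox10 and −0.15 for Tap2. Under sex and strain covariates the differences were 0.30 for Tap1, −0.15 for Psmb8, −0.15 for Psmb9, 0.12 for Cd163, −0.045 for Itgam, −0.80 for Casp1, −0.68 for Postn, 0.023 for Cdk1, 0.027 for Ccnd1, 0.15 for Sox10, −0.13 for Tap2, −0.0101 for Psmb10, −0.22 for Cxcl9 and −0.18 for Ccl7. In F1-hybrid tumours the differences were 0.049 for Tap1, −0.14 for Psmb9, 0.034 for Cd163, −0.18 for Casp1, −0.75 for Postn, 0.25 for Sox10, −0.32 for Tap2 and −0.077 for Psme1. Under array weights the differences were 0.0058 for Tap1, 0.022 for Cd163 and −0.034 for Postn. With the continuous mean, scaled to the distance between the sets, the differences were 0.023 for Tap1, 0.013 for Cd163, −0.15 for Postn and −0.0801 for Tap2. Under a sex covariate the differences were 0.027 for Cd163, 0.0003 for Cd3e, 0.014 for Prf1, 0.0067 for Col1a1 and −0.049 for Pdgfra. Without T5 and T8 the differences were 0.0093 for Cd163 and 0.0015 for Cd3e. With each tumour left out in turn the ranges were −0.14 to 0.071 for Tap1, −0.044 to 0.14 for Psmb9, −0.045 to 0.037 for Cd163, −0.014 to 0.0093 for Cd3e, −0.015 to 0.0077 for Prf1, −0.10 to 0.51 for Casp1, −0.26 to 0.40 for Postn, −0.19 to 0.061 for Sox10 and −0.086 to 0.23 for Tap2.

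Differences of the interferon genes describe the sets and are not an independent result. The sign of the difference turned for 7 of these genes in some of the 26 fits. The ranges were −0.79 to 0.54 for Ifi47 (other sign in 4 fits), −0.36 to 0.12 for Mavs (2), −0.59 to 0.054 for Irf1 (2), −0.28 to 0.17 for Jak1 (8), −0.25 to 0.12 for Pias1 (6), −0.23 to 0.21 for Ptpn2 (8) and −0.13 to 0.41 for Jak2 (5).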
